A study of Mus musculus with 6 samples.

Results

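Macrophage C-type lectin receptors are the subject here: Mrc1, Mgl2, Clec10a, Clec7a, Clec4n, Clec4d, Clec4e, Clec4a2 and Clec12a, 9 genes of the 56941 in the count table. They were chosen by name, as mannose, galactose and dectin family lectins of macrophages and dendritic cells, and chosen on measured values of the same contrast that is described below, the large fall of Mgl2 among them. The difference between the groups is therefore given for these 9 genes as a description. Calls printed for them come from the fit of all genes and are not read as a test. All 9 were found by their Ensembl identifier, and all 9 passed the filter on low counts.

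The libraries came from cells taken from mouse lungs with magnetic beads, cleared of dead cells and labelled as primary endothelial cells. The titles call them PAECs, an abbreviation that the labels do not spell out, and the protocol names the lungs as a whole as their source. Of the 6 libraries, 3 (FL 1 to 3) have the genotype FUNDC1-FLOX, mice with a floxed gene for the mitophagy receptor Fundc1, and 3 (EC-KO 1 to 3) have the genotype FUNDC1-KO, named EC-KO in the titles, an endothelial knockout of that gene. Cells of both groups were kept in ECM medium with serum, ECGS and antibiotics, and polyA RNA was sequenced. The driver of the deletion, the exons it removes, the antibody on the beads, the time in culture and the strain, age and sex of the mice are not stated in these sources. No label says that libraries came from separate animals, so a p-value measures only the spread between these libraries, which may be technical.

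Between 26.7 M and 34.3 M counts per library were assigned to genes. Fundc1 stood at 25.1, 32.0 and 30.7 CPM (read counts relative to library size, scaled with TMM factors) across the FL libraries and at 14.1, 18.2 and 12.8 CPM across the EC-KO libraries (values are given in the order of libraries 1, 2 and 3, here and below), a log2 fold change of -0.96 ± 0.19 (SE, n = 3 and 3, edgeR adjusted p = 0.00796). The labelled cell type was present, with a summed level of 12 endothelial markers between 7871 and 10998 CPM in FL and between 3308 and 6697 CPM in EC-KO. Macrophage RNA was present as well: the sum of 11 macrophage markers was 3079.9 to 4668 CPM in FL and 1959.6 to 2732 CPM in EC-KO. No marker of either list was at 0 in all libraries. In bulk RNA, fewer cells of a type and less RNA per cell cannot be told apart, and this holds for every level below.

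C-type lectin receptors are surface proteins that bind sugars or lipids through a conserved lectin fold, and on macrophages and dendritic cells they serve uptake and the sensing of fungi, bacteria and dying cells. Mrc1 (CD206), Mgl2 (CD301b) and Clec10a (CD301a) take up mannose-bearing or galactose-bearing glycoproteins and are used as marks of alternatively activated macrophages. Clec7a (dectin-1) binds beta-glucan and signals through a motif in its own tail, whereas Clec4n (dectin-2), Clec4d (MCL) and Clec4e (Mincle) signal through the adaptor encoded by Fcer1g, all of them towards the kinase Syk and the adaptor Card9. Clec4a2 (DCIR) and Clec12a (MICL) carry inhibitory motifs. In the lung, alveolar macrophages are known for high levels of Mrc1 and Clec7a, and interstitial macrophages and dendritic cells for Mgl2.

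The RefSeq table of promoters (GRCm38.p6) held 8 promoters of 7 of the 9 genes. The 250 bases before the start are printed for the pair with the largest fall (Mgl2 and Mrc1) and the pair with the smallest (Clec4e and Clec4d), so that both ends of the set can be compared. Each runs 5′ to 3′ on the strand of its gene, and capitals mark the core of the PU.1 site, GAGGAA or its reverse complement TTCCTC. They lie at chr11:70130107-70130356 (plus strand, Mgl2), chr2:14229164-14229413 (plus strand, Mrc1), chr6:123289872-123290121 (minus strand, Clec4e) and chr6:123261857-123262106 (plus strand, Clec4d).
Mgl2: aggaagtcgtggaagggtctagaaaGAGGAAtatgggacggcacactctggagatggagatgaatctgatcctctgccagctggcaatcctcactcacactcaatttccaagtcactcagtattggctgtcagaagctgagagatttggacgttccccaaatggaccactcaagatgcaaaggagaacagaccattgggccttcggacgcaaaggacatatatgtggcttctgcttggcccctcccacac
Mrc1: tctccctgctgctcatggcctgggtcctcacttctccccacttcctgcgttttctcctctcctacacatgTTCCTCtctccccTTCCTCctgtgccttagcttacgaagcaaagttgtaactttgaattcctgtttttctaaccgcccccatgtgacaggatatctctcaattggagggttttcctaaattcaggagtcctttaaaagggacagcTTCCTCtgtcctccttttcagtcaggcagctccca
Clec4e: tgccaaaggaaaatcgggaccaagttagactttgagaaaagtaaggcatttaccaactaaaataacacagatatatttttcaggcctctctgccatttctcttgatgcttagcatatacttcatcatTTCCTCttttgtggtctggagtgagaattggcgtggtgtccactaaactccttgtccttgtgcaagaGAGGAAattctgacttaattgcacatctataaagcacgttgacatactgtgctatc
Clec4d: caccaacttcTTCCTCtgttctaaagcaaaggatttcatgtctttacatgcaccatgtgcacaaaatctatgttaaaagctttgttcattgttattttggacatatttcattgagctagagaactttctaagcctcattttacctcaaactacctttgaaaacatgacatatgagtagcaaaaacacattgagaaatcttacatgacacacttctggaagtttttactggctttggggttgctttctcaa

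PU.1, encoded by Spi1, is the master transcription factor of macrophages. Its core GAGGAA, searched on both strands, was in 7 of the 8 promoters, those of 6 genes, and in 23.3% of the 32851 mouse promoters of the same length. Mrc1 had it at 180, 167 and 35 bases before the start and Clec4e at 123 and 56 bases. Mgl2 had it 225 bases before the start and Clec4d 240 bases, so the core was in promoters at both ends of the range of fold changes. The promoter of Clec4a2 was the 1 without it. Of 3 further motifs searched on both strands, TTCNNNNGAA (STAT6) was only in the 2 overlapping promoters of Clec7a (5.85% of all promoters), TGANTCA (AP-1) only in that of Clec12a (6.75%), and CACGTG (the E-box of MITF and TFE factors) in none of the 8 (6.02%). No match overlapped another motif. A match describes letters in this window and is neither a binding site nor a cause.

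All 9 receptors were lower in EC-KO than in FL, and they did not fall alike. Log2 fold changes ran from -3.95 (Mgl2) to -0.92 (Clec4d) with a median of -1.99, where the median over all 18562 tested genes was 0.03. The sugar-uptake receptors Mgl2, Mrc1 and Clec10a fell most, the Fcer1g-coupled receptors Clec4n, Clec4e and Clec4d least, and Clec7a, Clec12a and Clec4a2 lay between them. By edgeR's quasi-likelihood test with Benjamini-Hochberg adjustment, 9 of 9 were called lower, where 13.5% of all tested genes were called lower and 13.5% higher. In all 9 the EC-KO libraries were all below the FL libraries, as in 22.8% of tested genes. Since this contrast chose the genes, nothing is read from those counts. With FL 2, FL 3, EC-KO 1 or EC-KO 3 left out the count was 8, since Clec4d was then not called.

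**Figure D1:**
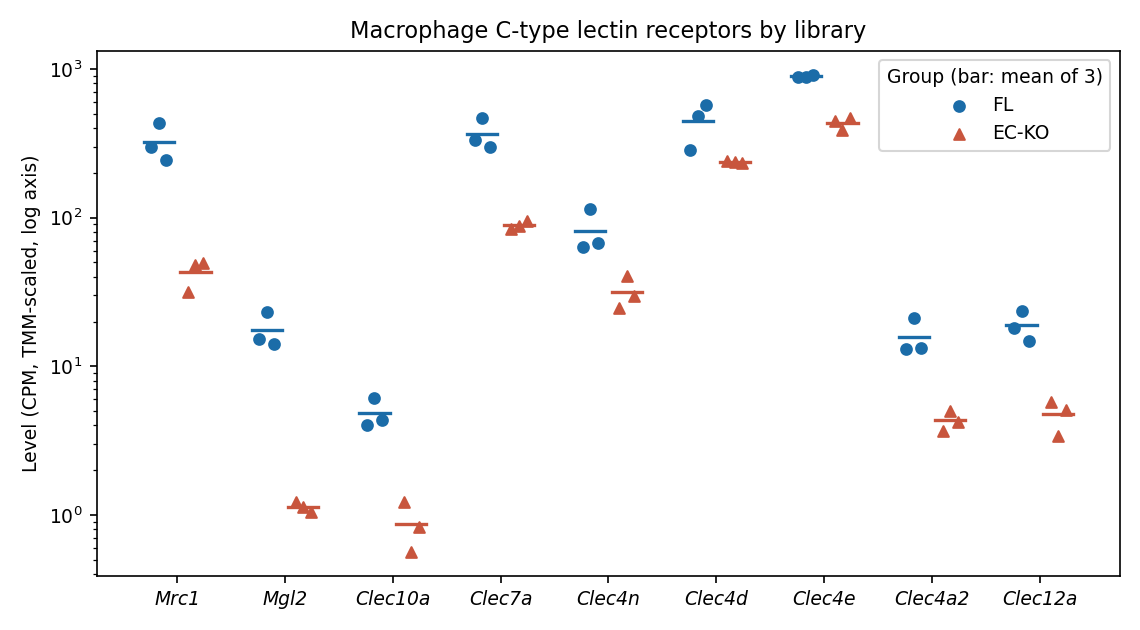
Level of each receptor gene in every library (CPM with TMM scaling, log axis), FL as circles and EC-KO as triangles, with a bar at the mean of 3 libraries. The 2 groups do not overlap for any gene, and the gap is widest for Mgl2 (17.5 against 1.13 CPM) and narrow for Clec4d (447 against 237.0 CPM).

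Mrc1, the endocytic mannose receptor, measured 297, 433 and 243 CPM across the FL libraries and 31.7, 48.4 and 49.4 CPM across the EC-KO libraries. Its mean went from 325 ± 98.0 to 43.2 ± 9.93 CPM (SD, n = 3 and 3), a 7.52-fold difference and a log2 fold change of -2.91. FL 2 was the highest library, and even the lowest FL library was several times the highest EC-KO library. The gene lies on chromosome 2 from 14234203 to 14336868 on the plus strand (identifier ENSMUSG00000026712), in the coordinates of the count table.

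Mgl2, a receptor for galactose and N-acetylgalactosamine sugars, measured 15.3, 23.0 and 14.1 CPM across the FL libraries. In EC-KO 1, 2 and 3 it measured 1.21, 1.13 and 1.05 CPM, from 42, 36 and 34 counts. The mean went from 17.5 ± 4.84 to 1.13 ± 0.0807 CPM (SD, n = 3 and 3), 15.5-fold and a log2 fold change of -3.95, the largest fold of the 9. The EC-KO libraries were close to one another, with a coefficient of variation of 7.14%, against 27.7% among the FL libraries.

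Clec10a, the close relative of Mgl2 that binds other galactose-type glycans, was the least abundant of the 9 per kilobase. It measured 4.06, 6.14 and 4.35 CPM across the FL libraries and 1.21, 0.564 and 0.835 CPM across the EC-KO libraries, the latter from 42, 18 and 27 counts. The mean went from 4.85 ± 1.13 to 0.871 ± 0.326 CPM (SD, n = 3 and 3), a log2 fold change of -2.47. Groups did not overlap, although EC-KO libraries varied more than for Mgl2 (coefficient of variation 37.4%).

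Mgl2 (chromosome 11, 70021155 to 70028376, ENSMUSG00000040950) and Clec10a (70047023 to 70061660, ENSMUSG00000000318) are neighbours on the plus strand with starts 25.9 kb apart. They are related genes with stretches of shared sequence: 13.1% of the 50-base stretches of Mgl2 transcripts and 9.02% of those of Clec10a occur in transcripts of other genes, each other among them. Reads from the shared stretches may have been left out or placed on either gene, so both levels carry that uncertainty. Per kilobase, Mgl2 stood at 5.23, 5.19 and 4.49 times Clec10a across the FL libraries and at 1.38, 2.77 and 1.74 times across the EC-KO libraries. The ratio was lower in every EC-KO library than in every FL library, so the fall was deeper for Mgl2 than for its neighbour.

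Clec7a, the beta-glucan receptor dectin-1, measured 334, 468 and 301 CPM across the FL libraries and 83.6, 88.2 and 95.3 CPM across the EC-KO libraries. The mean went from 367.5 ± 88.4 to 89.1 ± 5.88 CPM (SD, n = 3 and 3), 4.13-fold. Clec12a, an inhibitory receptor that senses uric acid crystals, measured 18.1, 23.6 and 14.8 CPM across the FL libraries and 5.75, 3.39 and 5.10 CPM across the EC-KO libraries. Its mean went from 18.9 ± 4.47 to 4.75 ± 1.22 CPM (SD, n = 3 and 3), 3.97-fold. An activating and an inhibitory receptor thus differed by a like fold: per kilobase Clec7a was between 38.6 and 42.6 times Clec12a in FL and between 30.5 and 54.6 times in EC-KO, and those ranges overlap. Both lie in the dectin-1 cluster of chromosome 6, Clec7a from 129438554 to 129449742 on the minus strand (ENSMUSG00000079293) and Clec12a from 129319654 to 129342266 on the plus strand (ENSMUSG00000053063).

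Clec4n, dectin-2, a receptor for fungal mannans, measured 63.3, 114 and 68.0 CPM across the FL libraries and 24.6, 40.3 and 29.5 CPM across the EC-KO libraries. Its mean went from 81.6 ± 27.8 to 31.5 ± 8.03 CPM (SD, n = 3 and 3), 2.59-fold. Clec4a2, the inhibitory receptor of the same cluster, measured 13.0, 21.1 and 13.2 CPM across the FL libraries and 3.70, 5.02 and 4.24 CPM across the EC-KO libraries. Its mean went from 15.8 ± 4.64 to 4.32 ± 0.664 CPM (SD, n = 3 and 3), 3.66-fold. FL 2 was the highest library for both. Of the 50-base stretches of Clec4a2 transcripts, 6.69% also occur in transcripts of other genes, its cluster neighbours Clec4a4 and Clec4b1 among them.

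Clec4d and Clec4e encode MCL and Mincle, partner receptors for mycobacterial cord factor. Clec4d measured 285, 483 and 574 CPM across the FL libraries and 239, 237 and 234 CPM across the EC-KO libraries. Its mean went from 447 ± 148 to 237.0 ± 2.45 CPM (SD, n = 3 and 3), 1.89-fold, and FL 1 lay much nearer to the EC-KO libraries than to FL 3. Clec4e was the steadiest receptor among FL libraries, at 888, 886 and 917 CPM, and measured 447, 389 and 466 CPM across the EC-KO libraries. Its mean went from 897 ± 17.4 to 434 ± 40.2 CPM (SD, n = 3 and 3), 2.07-fold. Per kilobase the ratio of Clec4d to Clec4e was 0.996, 1.69 and 1.94 across the FL libraries and 1.66, 1.90 and 1.56 across the EC-KO libraries, so it overlapped between the groups.

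These 4 genes lie in the dectin-2 cluster of chromosome 6, which holds other lectin genes too. They are Clec4a2 (123083387 to 123120958, ENSMUSG00000030148), Clec4n (123206802 to 123223980, ENSMUSG00000023349), Clec4d (123239070 to 123252224, ENSMUSG00000030144) and, on the opposite strand, Clec4e (123258748 to 123266829, ENSMUSG00000030142). The starts of Clec4d and Clec4e are 27.8 kb apart and those of Clec4n and Clec4d 32.3 kb apart. No receptor of the 9 shared exon bases with another gene of the table.

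Levels between genes were compared per kilobase of the gene length in the count table. In FL the order of the mean level per kilobase was Clec4d (279.8 CPM), Clec4e (181 CPM), Clec7a (139 CPM), Clec4n (57.5 CPM), Mrc1 (50.9 CPM), Mgl2 (8.35 CPM), Clec4a2 (5.40 CPM), Clec12a (3.41 CPM) and Clec10a (1.67 CPM). Clec4d and Clec4e overlapped between FL libraries, as did Clec4n and Mrc1, and as did Mgl2 and Clec4a2, and no other neighbours in the order did. In EC-KO the first 5 places were the same, followed by Clec4a2 (1.48 CPM), Clec12a (0.858 CPM), Mgl2 (0.540 CPM) and Clec10a (0.300 CPM), and no neighbours in that order overlapped. Mgl2 thus went from the 6th to the 8th place, and it was in that place in all 3 libraries of each group.

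The sum of the 9 levels per kilobase was 591, 831 and 759 CPM across the FL libraries and 297, 299 and 308 CPM across the EC-KO libraries. Of that sum, Clec4d made up 37.9% ± 8.68 in FL and 49.2% ± 1.46 in EC-KO (SD, n = 3 and 3). Clec7a went from 19.3% ± 3.67 to 11.2% ± 0.523, Mrc1 from 7.03% ± 1.75 to 2.24% ± 0.491, and Mgl2 from 1.15% ± 0.230 to 0.179% ± 0.0161. On average, the receptor RNA left in EC-KO was therefore richer in Clec4d and poorer in Clec7a, Mrc1 and Mgl2. The share of Clec4d in FL 3 (47.3%) was nonetheless close to that in EC-KO 3 (47.6%). Among FL libraries the highest was FL 2 for 7 receptors and FL 3 for Clec4d and Clec4e.

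General macrophage genes were lower in EC-KO too, and each receptor was set against them within its library. The reference was the mean level of Csf1r, Adgre1, Cd68, Fcgr1 and Mertk, which encode a growth factor receptor and surface, lysosomal and clearance proteins of macrophages. It stood at 118, 141 and 105 CPM across the FL libraries and at 31.5, 40.4 and 38.2 CPM across the EC-KO libraries, a log2 ratio of -1.72. Relative to this reference, Mgl2 was lower in EC-KO by a log2 difference of -2.20 and Mrc1 by -1.17, in both cases with no overlap between groups, and Clec7a by -0.30, also without overlap. Clec10a (-0.80), Clec12a (-0.28), Clec4a2 (-0.12) and Clec4n (0.37) overlapped between the groups. Clec4e (0.67) and Clec4d (0.87) were higher relative to the reference in every EC-KO library than in every FL library. Against this reference the 9 receptors thus split into 3 whose EC-KO libraries all lay below the FL libraries, 4 that overlapped and 2 that lay above. The split depends on the reference: against the median of the 11 macrophage markers, Mgl2 (-1.40) and Mrc1 (-0.37) were still lower in EC-KO, Clec7a (0.50), Clec12a (0.52) and Clec4a2 (0.68) changed sign, Clec10a was at -6.87e-06, and Clec4n (1.17), Clec4e (1.47) and Clec4d (1.67) were higher. Without EC-KO 2 the value of Clec12a against the mean was 0.022. These relative values rest on the same contrast and have no test.

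**Figure D2:**
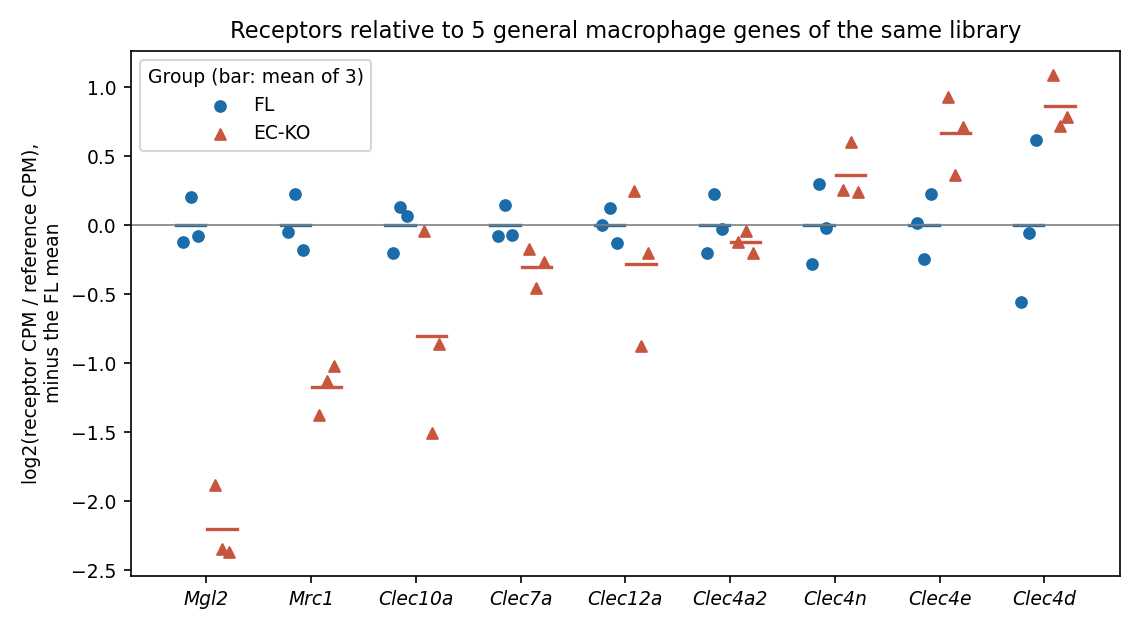
Log2 ratio of each receptor to the mean of 5 general macrophage genes of the same library, minus its mean over FL, for FL (circles) and EC-KO (triangles), with a bar at the mean of 3 libraries. Mgl2 (-2.20) and Mrc1 (-1.17) lie far under the FL libraries, and Clec4e (0.67) and Clec4d (0.87) lie above them.

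Other C-type lectins were then read by the cell class that carries them. Of 24 other myeloid C-type lectins, 16 were tested, 10 were called lower and 1 higher, with a median log2 fold change of -1.59. Clec4a3, a dectin-2 cluster gene, measured 28.8, 31.3 and 19.8 CPM across the FL libraries and 2.92, 2.76 and 4.02 CPM across the EC-KO libraries. Its log2 fold change was -3.04 ± 0.25 (SE, edgeR adjusted p = 0.000436), a value between those of Mgl2 (-3.95) and Mrc1 (-2.91). Clec4a1 of the same cluster fell by 2.87 ± 0.38 and Olr1, the receptor for oxidised low-density lipoprotein, by 1.98 ± 0.23 on the log2 scale (SE, adjusted p = 0.00147 and 0.000899). The dendritic cell lectin Cd209a (DC-SIGN family, -3.44), the Langerhans cell lectin Cd207 (-1.77) and the Tyrobp-coupled receptor Clec5a (-0.95) were also called lower. Asgr1, placed in this list although known as the liver asialoglycoprotein receptor, was the 1 called higher (3.44 ± 0.82, SE, adjusted p = 0.0159). It stood at only 0.116 CPM in FL and 1.25 CPM in EC-KO. Without FL 3 it was not called, and none was then called higher. Without EC-KO 2 the count of higher calls was 2.

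C-type lectins of endothelial and stromal cells were mixed. Of 14 tested, 3 were called lower and 5 higher, with a median of 0.44. The endothelial lectin Clec14a measured 330, 359 and 481 CPM across the FL libraries and 35.8, 59.7 and 34.3 CPM across the EC-KO libraries, a log2 fold change of -3.17 ± 0.27 (SE, edgeR adjusted p = 0.000436). Thrombomodulin, Thbd, fell by 2.20 ± 0.38 and Clec1a by 1.47 ± 0.29. The stromal lectins Clec3b (tetranectin, 3.22 ± 0.38) and Clec11a (osteolectin, 2.97 ± 0.43) rose, as did the phospholipase receptor Pla2r1 (1.35 ± 0.33, adjusted p = 0.0174). Pla2r1 and Mrc2 (Endo180, 1.35 ± 0.40) are mannose receptor family members like Mrc1 and moved in the opposite direction. The family was split, since its member Ly75, from the list of other myeloid lectins, was called lower (-1.41 ± 0.35, adjusted p = 0.0189). Ly75 lost that call in 4 of 14 alternative fits. Pla2r1 was not called without FL 2 (adjusted p = 0.0598) or FL 3 (0.0762). Mrc2 lost its call in 5 fits. Those left out EC-KO 1 (adjusted p = 0.0575), EC-KO 2 (0.0529), FL 1 (0.105), FL 3 (0.125) or the filter on low counts (0.171). Leaving out any of FL 1, FL 2, EC-KO 1 and EC-KO 2 gave 3 higher calls and leaving out FL 3 gave 2, and that of lower calls was 5 without FL 2 or EC-KO 2.

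Of 17 tested C-type lectins of lymphocytes and natural killer cells, 8 were called higher, with a median of 0.92. Of 10 lymphocyte markers 2 were called lower and 1 higher (median -0.11), and their sum overlapped between the groups at 414 to 612 CPM in FL and 258 to 663 CPM in EC-KO. With a library left out, 0 to 2 of these markers were called in each direction. Cd69, an early activation antigen encoded in the dectin-1 cluster region, measured 104, 83.9 and 63.4 CPM across the FL libraries and 457, 190.5 and 372 CPM across the EC-KO libraries. Its log2 fold change was 2.02 ± 0.32 (SE, edgeR adjusted p = 0.0031). The natural killer receptors Klrc2 (1.03 ± 0.23) and Klrk1 (0.82 ± 0.19) were called higher, but neither was called without FL 2 (adjusted p = 0.0586 and 0.0685) or FL 3 (0.0571 and 0.0724), nor Klrk1 without EC-KO 1 (0.0554). The count of higher calls was 4 without FL 2, 2 without FL 3 and 3 without EC-KO 1. The difference between these classes of lectins and the 9 receptors was not tested.

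**Figure D3:**
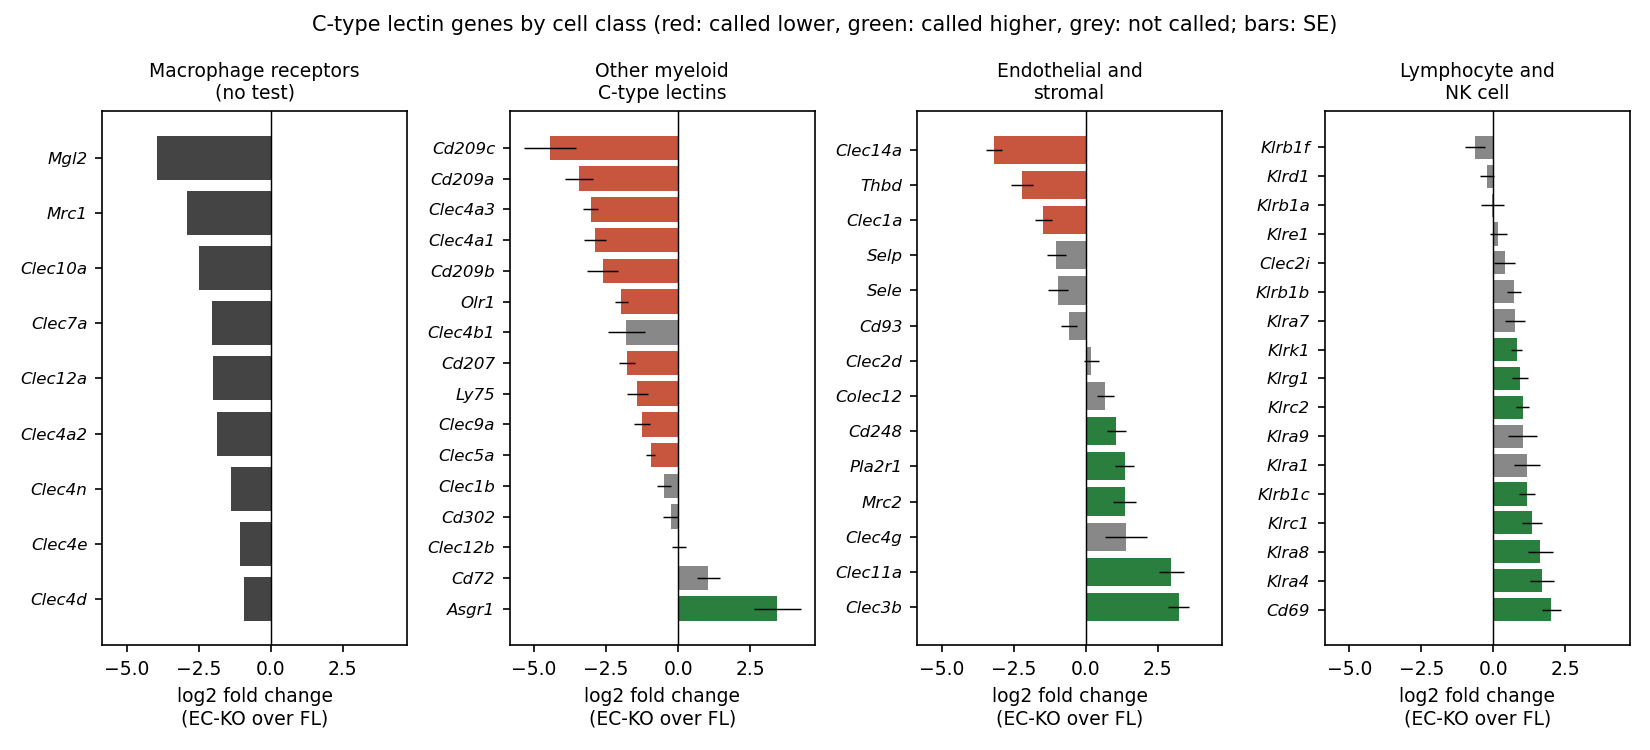
Log2 fold change (EC-KO over FL) of the 9 receptors, drawn without a test, and of the tested C-type lectins of other myeloid cells, of endothelial and stromal cells and of lymphocytes and natural killer cells, with bars for the SE and colours for the call. Medians are -1.99, -1.59, 0.44 and 0.92 from left to right.

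The receptor genes stand in clusters, so the genes around them were read next. Within 200 kb of the start of a receptor lie 76 other genes, of which 44 were tested, 8 were called lower and 12 higher, with a median of 0.14. On chromosome 6, 6 of 20 were called lower: Clec4a1 and Clec4a3, then Clec9a (a receptor for dead cells on dendritic cells), Clec1a, Olr1 and the non-coding 2310001H17Rik. In the same stretch Cd69, Klrk1 and Klrc2 were called higher, and Clec12b (0.03) and Clec1b (-0.50), which lie between Clec12a and Clec7a, were not called. On chromosome 11, 6 of 19 tested neighbours of Mgl2 and Clec10a were called higher, and 1, the lipoxygenase gene Alox15 (-1.86 ± 0.37, SE, edgeR adjusted p = 0.00731), was called lower. The claudin gene Cldn7 (2.57 ± 0.35) and the monocarboxylate transporter genes Slc16a11 (1.81 ± 0.35) and Slc16a13 (1.56 ± 0.28) rose there. Asgr1, Dvl2 (1.05 ± 0.28) and Bcl6b (1.07 ± 0.34) were called higher there too. Dvl2 lost its call in 4 of 14 alternative fits and Bcl6b in 7 of 14. On chromosome 2, 3 of 5 neighbours of Mrc1 were called higher (Hacd1, Stam and Tmem236) and 1 lower (Slc39a12). Hacd1 lost its call in 6 of 14 alternative fits, Stam in 5 of 14, Tmem236 in 7 of 13 and Slc39a12 in 2 of 14. Counts over the 4 regions together were less stable for the higher calls, with 5 without FL 2 and 4 without FL 3. Lower calls were 5 without EC-KO 1, where Clec9a was not called (adjusted p = 0.0552), and 2310001H17Rik lost its call in 4 of the 6 fits that leave out a library.

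**Figure D4:**
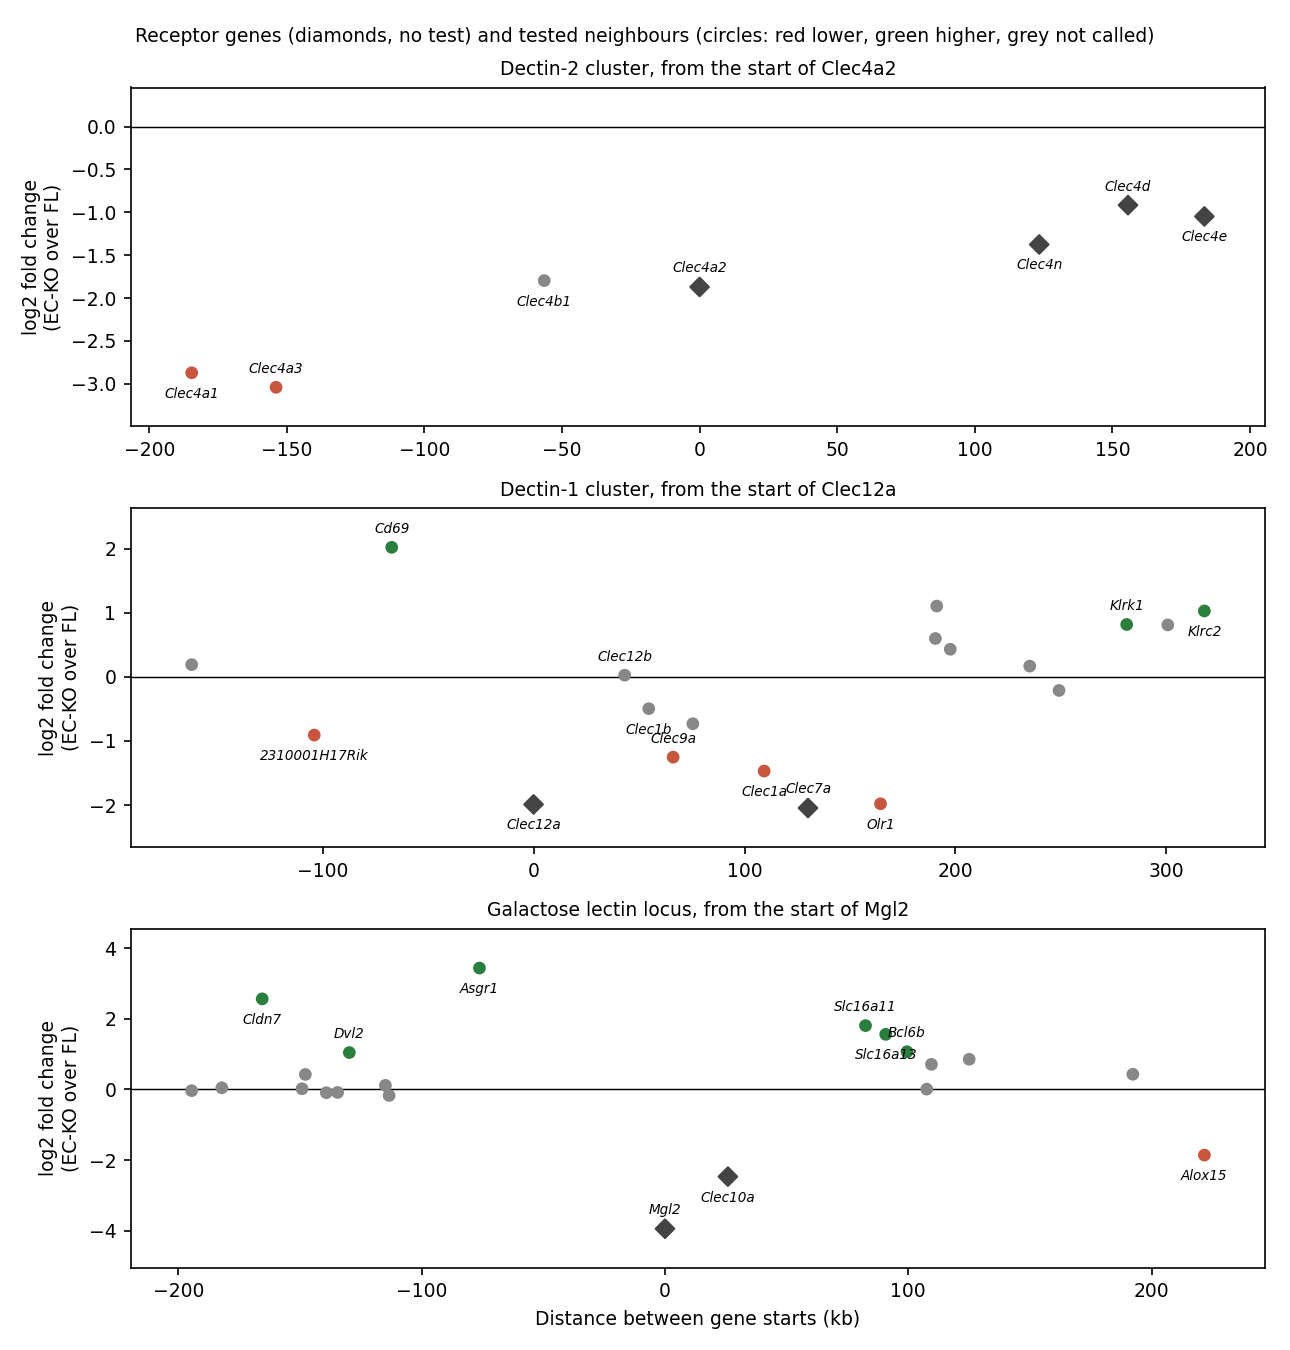
Log2 fold change (EC-KO over FL) of the receptor genes (diamonds, no test) and of the tested genes around them (circles, coloured by call) against the distance between gene starts in kb, for the dectin-2 cluster, the dectin-1 cluster and the Mgl2 and Clec10a locus. Most genes around Mgl2 and Clec10a lie at or above 0, whereas all tested lectins of the dectin-2 cluster lie below it.

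Downstream of the receptors, signalling genes moved in both directions or were not called. Of 22 signalling genes tested, 7 were called lower and 4 higher, with a median of 0.07. Fcer1g, the adaptor of Clec4n, Clec4d and Clec4e, measured 116, 108 and 93.0 CPM across the FL libraries and 43.7, 51.7 and 42.0 CPM across the EC-KO libraries, a log2 fold change of -1.21 ± 0.16 (SE, edgeR adjusted p = 0.00147). That value lies between those of Clec4e (-1.05) and Clec4n (-1.38). The related adaptor gene Tyrobp fell by 1.84 ± 0.20 (adjusted p = 0.000625). Card9, which links Syk to NF-kB, measured 13.9, 27.4 and 22.3 CPM across the FL libraries and 2.92, 3.80 and 2.97 CPM across the EC-KO libraries, a log2 fold change of -2.71 ± 0.28 (adjusted p = 0.000582). Its partners Bcl10 (0.34 ± 0.17) and Malt1 (0.08 ± 0.26) were not called, and neither were Vav1, Plcg2, Inpp5d and Rel. Vav3 was called lower (edgeR adjusted p = 0.0204) but lost its call in 4 fits that leave out a library.

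The Src family kinases of myeloid cells Fgr (-2.22 ± 0.16) and Lyn (-1.31 ± 0.17) were called lower, and the broadly expressed Src was called higher (1.03 ± 0.19, SE, edgeR adjusted p = 0.0060). Syk itself measured 641, 777 and 573 CPM in FL and 488, 281 and 488 CPM across the EC-KO libraries, and its log2 fold change of -0.66 ± 0.24 was not called (adjusted p = 0.0714), although the groups did not overlap. Ptpn6 (SHP-1), the phosphatase that inhibitory receptors such as Clec4a2 and Clec12a recruit, fell by 1.47 ± 0.21 (adjusted p = 0.00217), while the related Ptpn11 (0.43 ± 0.15) was not called. Of the nuclear factors, Relb rose by 0.97 ± 0.17 (adjusted p = 0.00512) and Nfatc2 by 0.79 ± 0.18, the latter not called without FL 3 (adjusted p = 0.0716) or EC-KO 1 (0.057). The count of higher calls was 2 without FL 3 or EC-KO 1; lower calls were 6 or 7 with each library left out.

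**Figure D5:**
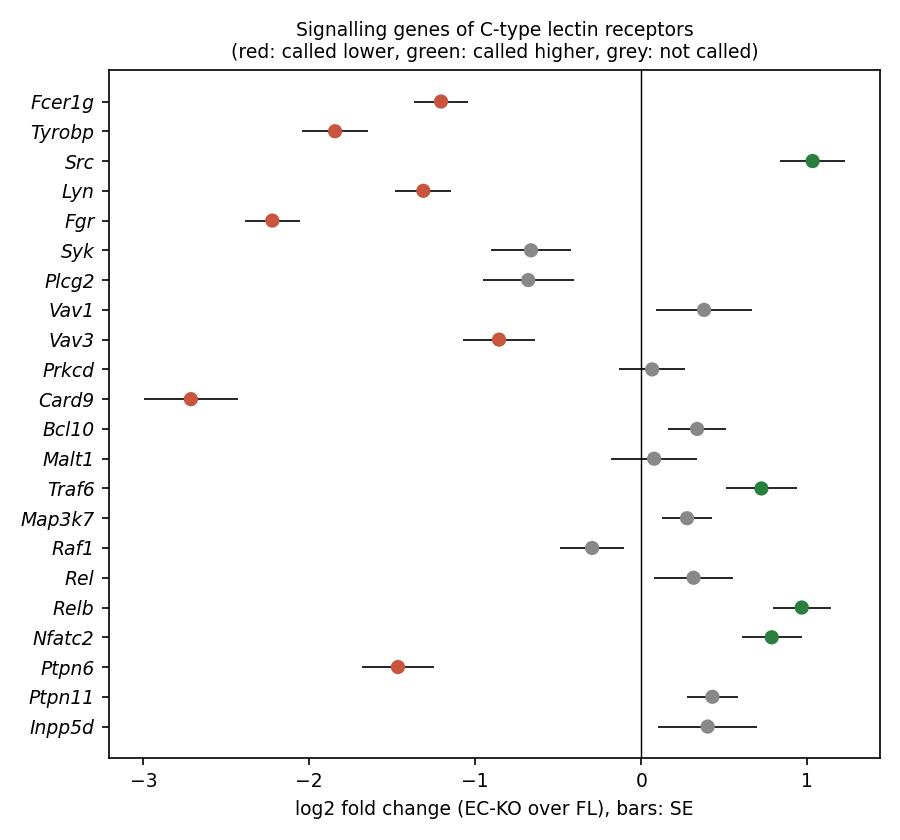
Log2 fold change (EC-KO over FL) with its SE for 22 signalling genes downstream of C-type lectin receptors, ordered from adaptors to phosphatases and coloured by call. Card9 (-2.71), Fgr (-2.22) and Tyrobp (-1.84) are farthest to the left, and Src (1.03) and Relb (0.97) farthest to the right.

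Genes that these receptors are known to induce were divided. Of 14 cytokine and early response genes tested, 4 were called lower and 3 higher, with a median of -0.29. Il1b measured 2295, 2566 and 2692 CPM across the FL libraries and 542, 505 and 487 CPM across the EC-KO libraries, a log2 fold change of -2.30 ± 0.18 (SE, edgeR adjusted p = 0.000352). Il23a, a subunit of the cytokine that antifungal dectin signalling elicits, fell by 1.98 ± 0.17 (adjusted p = 0.000436) and Ptgs2, the inducible cyclooxygenase, by 0.88 ± 0.18 (adjusted p = 0.0081). Il10 (0.80 ± 0.20), Egr3 (0.58 ± 0.15) and Il6 (1.23 ± 0.37) were called higher, and none of the 3 was called without FL 2 (adjusted p between 0.0673 and 0.127), without FL 3 (0.0873 to 0.133) or without EC-KO 1 (0.0743 to 0.0954), where the count of higher calls was 0. The groups of Il6 overlapped, and it was not called without a filter on low counts either (adjusted p = 0.114). Tnf (-0.44 ± 0.17) and the chemokine gene Cxcl2 (-0.34 ± 0.17) were not called.

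Mrc1, Mgl2 and Clec10a are known targets of interleukin 4 in macrophages, and other genes of that program fell as well. Of 16 tested, 11 were called lower and 1 higher, with a median of -1.06. The medians of the macrophage and alveolar macrophage markers were further down, at -2.30 and -1.99, and Chil3 and Pparg stand in the latter list too. Whether the program fell apart from macrophage genes at large was not tested. Chil3, a chitinase-like protein of alveolar macrophages, measured 5163, 3004 and 2327 CPM across the FL libraries and 359.5, 626 and 474 CPM across the EC-KO libraries, a log2 fold change of -2.85 ± 0.34 (SE, edgeR adjusted p = 0.000985). The chemokine gene Ccl22 fell by 1.88 ± 0.22, the nuclear receptor gene Pparg by 1.69 ± 0.23 and the haemoglobin scavenger receptor gene Cd163 by 2.95 ± 0.43. Irf4, a transcription factor of lymphocytes, dendritic cells and alternatively activated macrophages, was the 1 called higher, from 102, 72.5 and 44.9 CPM across the FL libraries to 534, 179 and 557 CPM across the EC-KO libraries (2.53 ± 0.45, adjusted p = 0.00471). It was not called when genes of low count were kept (adjusted p = 0.0587). The receptor gene Il4ra (-0.34 ± 0.17) was not called, and neither was Retnla (0.15 ± 0.45), another hallmark of the program, at 27.3, 7.82 and 8.41 CPM across the FL libraries and 13.4, 15.2 and 19.5 CPM across the EC-KO libraries. The count of lower calls was 6 without FL 2 and 7 without EC-KO 1, and that of higher calls was 2 without FL 1.

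Endocytic receptors of other families were compared with Mrc1. Of 14 tested, 9 were called lower and none higher by edgeR, with a median of -1.42; at an unadjusted p under 0.05 none was higher, and DESeq2 called none higher. Cd68 fell by 1.51 ± 0.21 (SE, edgeR adjusted p = 0.00159), the receptor kinase Mertk, which clears dying cells, by 1.40 ± 0.21 (adjusted p = 0.00222), and Cd163 by 2.95 ± 0.43 (adjusted p = 0.00217). The fold change of Mrc1 (-2.91) was close to that of Cd163. Stab1 (-0.02 ± 0.27) and Lrp1 (0.05 ± 0.28) were not called. Lyve1 (edgeR adjusted p = 0.00342), Axl (0.00271) and Cd36 (0.0186) were called lower. Cd36 was not called without FL 3 (0.0735), EC-KO 1 (0.0764) or EC-KO 3 (0.0598).

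A list of transcription factors that macrophages use was read as well. Of 10 tested, 4 were called lower and 1 higher, with a median of -0.49. Spi1, which encodes PU.1, measured 124, 141 and 126 CPM across the FL libraries and 34.3, 35.9 and 43.1 CPM across the EC-KO libraries, a log2 fold change of -1.79 ± 0.16 (SE, edgeR adjusted p = 0.000436). Tfec fell by 2.22 ± 0.23 (adjusted p = 0.000582) and the related Mitf by 1.01 ± 0.21 (adjusted p = 0.00877). Irf8, shared by macrophages, dendritic cells and B cells, was called higher (1.27 ± 0.25, adjusted p = 0.00768), while Cebpa (0.54 ± 0.27) and Runx1 (0.40 ± 0.18) were not called. A part of these factors in the fall of the receptors was not tested.

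Marker lists of cell types were read beside the receptors. Of 11 macrophage markers 9 were called lower and none higher (median -2.30), of 10 alveolar macrophage markers all 10 were lower (median -1.99), and of 8 monocyte markers 6 were lower (median -1.06). Neutrophils carry Clec4e, Clec4d and Clec12a as well, and 5 of 10 of their markers were called lower (median -1.55), with a summed level of 1006 to 3052 CPM in FL and 454 to 567 CPM in EC-KO. The sum of 10 alveolar macrophage markers was 3424 to 6704 CPM in FL and 689 to 1160 CPM in EC-KO. Dendritic cells carry Clec10a, Mgl2 and Clec4a2 too. Of 11 of their markers 2 were lower and 1 higher (median -0.44), and the sum overlapped between groups at 2919 to 3842 CPM in FL and 2116 to 3536 CPM in EC-KO. Without EC-KO 2 the count of higher dendritic cell markers was 2. All 8 epithelial markers were higher (median 2.54), with sums of 1679 to 4047 CPM in FL and 10238 to 15007 CPM in EC-KO. Of 7 fibroblast markers 4 were higher (median 1.18), with sums of 286 to 365 CPM in FL and 536 to 1184 CPM in EC-KO. Some markers outside the myeloid lists were lower as well. All 7 markers of smooth muscle and pericytes were called lower (median -1.06), 3 of them without EC-KO 1, with sums of 558 to 782 CPM in FL and 262 to 375 CPM in EC-KO. Of 12 endothelial markers 7 were lower (median -1.04); the count was 5, 3 and 2 without FL 1, 2 and 3 and 2, 12 and 3 without EC-KO 1, 2 and 3. The part of these cell types in the fall of the receptors was not tested.

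Across the 6 libraries, the genes whose centred log2 level was most like the mean profile of the 9 receptors were Tgfbi, Csf1r, Myo1f, Emilin2 and Ltb4r1, with root mean square differences between 0.080 and 0.116. Csf1r, the receptor for the macrophage growth factor, differed by 0.088; it measured 174, 240 and 154 CPM across the FL libraries and 50.1, 45.4 and 50.8 CPM across the EC-KO libraries. The profile of Mgl2 alone had no match as close. Its nearest genes were Cxcr2, Tlr8, Exoc3l2, Slc16a3 and Lama1, at 0.363 to 0.415. Cxcr2, the neutrophil chemokine receptor, measured 49.3, 108 and 106 CPM across the FL libraries and 5.83, 4.83 and 5.50 CPM across the EC-KO libraries. Likeness over 6 libraries in 2 groups is set mostly by the difference between the groups.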

How the data were processed

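Raw counts per Ensembl gene in the 6 libraries were used as deposited, in the layout of featureCounts per the file headers. Named in the submitters' processing notes are featureCounts 2.0.3, STAR 2.7.10b and the build mm10; settings and strand are not stated in these sources. Only 2.80% of the 51948 genes with a GENCODE M21 (GRCm38) entry started at the same base in both, so positions follow the count table and their build is unresolved. The authors' table of counts has 2 further per-sample columns that match no label, and these were not used. The authors' counting assigned 72.4% to 77.8% of alignments to genes, and 9.10% to 11.5% mapped to several places.

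Genes were filtered with filterByExpr (18562 of 33412 with any count), scaled with TMM and fitted with edgeR 4.0.16 (robust quasi-likelihood F test, EC-KO against FL, no covariates, two-sided, Benjamini-Hochberg over all tested genes, threshold 0.05), which called 5029 genes, 2514 lower and 2515 higher. The test was run on simulated counts with 200 changed genes and the same dispersion for every gene. That setting is simpler than these data, so it does not measure how well the calls hold here. An SE is the absolute log2 fold change over the square root of F. CPM are counts over TMM-scaled library size, and levels per kilobase use the gene length of the table. The common biological coefficient of variation was 25.5%. The first principal component (59.7%) separated the groups, and the second (16.8%) set EC-KO 2 apart.

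The receptors, the other lists, the macrophage reference and the neighbour window of 200 kb were chosen with earlier results of these data known. Named are the 9 receptors, up to 3 called genes per direction and list by smallest p, called neighbours and the 5 genes nearest to each profile; further list genes were picked for the text with their values known. A few genes of these lists are not reported here; they were left out of the list counts and medians, the macrophage markers and the macrophage reference after the data had been examined. The alternatives tried were scaling by RLE, by upper quartile and by library size, 2 other filters, DESeq2 1.42.0, limma-voom 3.58.1, the replicate number as a block, each library left out, windows of 50 and 500 kb and the median of the macrophage markers as reference.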

Additional observations from a re-analysis of the deposited data

How the results depend on the processing

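The 9 receptors were lower in EC-KO under each of the 14 alternatives, with log2 fold changes of -4.11 to -3.71 for Mgl2, -3.11 to -2.65 for Mrc1 and -1.19 to -0.73 for Clec4d. All 9 were called in each but 4 of them, and 8 without FL 2 (edgeR adjusted p of Clec4d 0.0832), FL 3 (0.0912), EC-KO 1 (0.0782) or EC-KO 3 (0.0629). Since this contrast chose the receptors, their calls here and below are a description, and nothing is read from them. Log2 differences relative to the macrophage reference depended on it: with the median of the 11 macrophage markers in its place Clec7a (0.50), Clec4a2 (0.68) and Clec12a (0.52) changed sign, Clec10a went from -0.80 to -6.87e-06, and that of Clec12a ran from -0.54 (without EC-KO 1) to 0.022 (without EC-KO 2) with a library left out. The cause was not tested. No other result reversed. The count of all genes changed lay between 2547 (without FL 3) and 6740 (without EC-KO 2) with a library left out. Over the same fits, higher calls ranged from 0 to 2 for other myeloid lectins, 2 to 6 for endothelial and stromal lectins, 2 to 10 for lymphocyte and natural killer lectins, 2 to 6 for signalling genes, 0 to 2 for cytokines and 1 to 2 for the interleukin 4 program. Lower calls ranged from 3 to 5 for endothelial and stromal lectins, 6 to 13 for the interleukin 4 program and 5 to 9 for genes near the receptors. Fewer libraries enter these fits. Genes near the receptors called lower were 2 within 50 kb and 19 within 500 kb, windows that hold fewer and more genes. Without a filter on low counts the higher calls of the interleukin 4 program were 0, and with a filter of 1 CPM in 3 libraries those of other myeloid lectins were 0. Lymphocyte markers called lower were 1 with upper-quartile scaling and with library size alone. DESeq2 gave 2 higher calls for other myeloid lectins and 5 lower calls for endothelial and stromal lectins. The cause of these last changes was not tested. The fit with the replicate number as a block called 3848 genes and 9 of 9 receptors. Same-numbered libraries deviated with correlations of 0.05, 0.07 and -0.18. With 3 libraries per group this gives no sign of a pairing by number but cannot exclude one. Counting depth limits Mgl2 and Clec10a most, with 18 to 42 counts per EC-KO library.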
